A study of Mus musculus with 28 samples.

Results

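Caspases, the apoptosome and the inhibitor of apoptosis proteins were followed through 8 genes, Casp8, Casp9, Casp6, Apaf1, Cycs, Xiap, Birc2 and Birc3. They were taken by gene symbol from the 24079 rows of a mouse RNA-seq table of raw read counts. All 8 symbols had a row, and all 8 passed the filter on low counts that left 15099 genes for testing. The 28 libraries came from mouse embryonic fibroblasts of the strain C57BL/6x129Sv that had been transformed with RAS and DNP53, so every control carries both oncogenic alterations as well. The study asked how cyclin D1 (Ccnd1) bears on apoptosis and proliferation in such cells, as far as its title says. Each line is 1 clone.

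Clones 12 and 14 are labelled Ctag-Cyclin D1, and clones 18 and 25 are labelled untagged. In clones 12 and 14, 1 library each was made after transfection with SCR siRNA (the control), FLAG or HA siRNA (called tag siRNAs here), and Qiagen, Nature or Life siRNA (called cyclin D1 siRNAs here). Further libraries of these clones were untreated or had leptomycin B, an inhibitor of nuclear export, at 20 ng/mL. Clones 18 and 25 had the SCR control and both tag siRNAs. Derivatives of clone 18 carrying mCherry/PURO or FLAG-mCherry-HA/PURO gave 3 libraries each, with HA siRNA replicate 1, HA siRNA replicate 2 and FLAG siRNA replicate 2. Transfection ran overnight with the lipid reagent RNAiMAX, and RNA was taken the next morning. The labels do not say that libraries of 1 clone came from separate cultures, so p-values here reflect how far libraries scatter around their clone and treatment levels, which may be technical. Titles of single libraries carry n=3 or n=4, and the labels do not say whether RNA was pooled or an experiment repeated.

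Caspases are proteases that cut cell proteins during apoptosis. Caspase-8 starts the cascade below death receptors, while caspase-9 is activated on the apoptosome, a wheel that APAF1 forms once cytochrome c (encoded by Cycs) leaves the mitochondrion. Caspase-6 is an executioner that acts further down. XIAP blocks active caspases directly, and cIAP1 and cIAP2, encoded by Birc2 and Birc3, are ubiquitin ligases that steer death receptor complexes towards survival and NF-kB signalling. Much of this control acts on the proteins, by cleavage and release from mitochondria, which RNA counts do not show.

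In build GRCm38.p6, Casp8 lies on chromosome 1 (58795233 to 58847503, plus strand) and Casp9 on chromosome 4 (141793612 to 141815978, plus strand). Casp6 lies on chromosome 3 (129901415 to 129914112, plus strand), Apaf1 on chromosome 10 (90989311 to 91082743, minus strand) and Cycs on chromosome 6 (50562563 to 50566569, minus strand). Xiap lies on chromosome X (42059613 to 42109664, plus strand). Birc2 (7818226 to 7837131) and Birc3 (7847468 to 7873205) are neighbours on the minus strand of chromosome 9. Casp8 overlaps the annotated gene Gm37760, Casp9 overlaps Cela2a and Ctrc, and Apaf1 overlaps Gm25390. Cytochrome c also has near-identical processed copies in the mouse genome, so the Cycs level depends on how reads shared with them were counted.

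The 250 bases before a RefSeq start (GRCm38.p6 table) are shown for Xiap, Casp9 and Casp6, because single siRNAs changed these genes and the windows hold no annotated exon. They were searched on both strands for GGGCGG (an SP1 motif), CCAAT, TGACGTCA (CRE) and TTTGGCGC or TTTCCCGC (E2F). Capitals mark GGGCGG, which occurs in the 3 windows shown. Xiap has further RefSeq starts: another window outside exons (chrX:42070992-42071241) holds no GGGCGG, and a window that overlaps an exon holds 1.
Xiap, chrX:42067586-42067835, plus strand, inside the annotated gene span but outside its exons: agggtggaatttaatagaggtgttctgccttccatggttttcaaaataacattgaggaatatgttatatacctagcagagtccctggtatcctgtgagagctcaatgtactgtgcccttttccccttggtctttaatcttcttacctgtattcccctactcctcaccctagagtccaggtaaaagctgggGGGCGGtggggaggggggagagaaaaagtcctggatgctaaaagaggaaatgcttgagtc
Casp9, chr4:141793362-141793611, plus strand, directly upstream of the annotated gene: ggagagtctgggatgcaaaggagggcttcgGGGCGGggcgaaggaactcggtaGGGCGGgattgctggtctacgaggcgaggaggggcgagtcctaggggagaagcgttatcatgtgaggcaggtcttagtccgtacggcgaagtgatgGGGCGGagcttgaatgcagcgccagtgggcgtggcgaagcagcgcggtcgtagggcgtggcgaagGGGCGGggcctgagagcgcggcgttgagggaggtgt
Casp6, chr3:129901165-129901414, plus strand, directly upstream of the annotated gene: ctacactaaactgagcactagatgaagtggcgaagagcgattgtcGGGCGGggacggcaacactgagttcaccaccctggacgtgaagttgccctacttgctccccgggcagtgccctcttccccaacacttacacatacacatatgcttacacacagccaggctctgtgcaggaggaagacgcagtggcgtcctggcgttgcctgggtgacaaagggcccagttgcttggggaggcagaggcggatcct
GGGCGG occurred 4 times before Casp9 and 1 time before each of Xiap and Casp6, and it is common: 32.72% of 32817 such mouse windows hold it. The other shares were 33.83% for CCAAT, 1.55% for the CRE motif and 1.3% for the E2F motifs. A match is a description of letters and shows no bound factor.

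Library totals ran from 26558256 to 81512769 counts. The maximum belonged to SCR clone 12, in which only 14132 genes had any count, the fewest of the 28. The ribosomal precursor Rn45s exceeded 2% of counts in 4 libraries, Life clone 14 (3.48%), mCherry HA replicate 2 (2.75%), Nature clone 14 (2.42%) and HA clone 12 (2.22%). Ccnd1 bore out the labels of the siRNAs in tagged clones: the log2 fold change against SCR was -2.70 (SE 0.19) for tag siRNA and -3.51 (SE 0.169) for cyclin D1 siRNA. In untagged clones tag siRNA gave -0.15 (edgeR adjusted p = 0.873). Of the fibroblast markers, Vim was high in both tagged clones, at 4010 to 6140 CPM (counts scaled to a common library total) in clone 12 and 4200 to 7920 in clone 14. The collagen gene Col1a1 stood at 343 to 710 CPM in clone 12 and was nearly absent in clone 14, at 0.292 to 0.967, where Thy1 reached at most 0.0494. Col1a2 was also nearly absent in clone 14 (at most 2.24 CPM). The fibroblast markers Col3a1, Fn1 and Sparc kept at least 93.1, 191 and 153 CPM in every library. Krt19 went the other way, at 34.1 to 90.9 CPM in clone 12 and 1090 to 2140 in clone 14. Clone 18 had 776 to 906 CPM of Krt19 and clone 25 had 212 to 260. Krt18 and Cdh1 were also higher in clone 14 than in clone 12. Of the other epithelial markers, Krt8 reached at most 10.9 CPM and Epcam at most 0.867 in any library. The endothelial marker Pecam1 stayed at or below 0.737 CPM and the leukocyte marker Ptprc at or below 0.459, while Cd14, from the macrophage list, ran from 9.12 to 22 CPM in clone 12 and from 35.6 to 115 in clone 14.

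The 8 genes spanned a wide range of abundance. Per kilobase of annotated exon, Cycs led with a mean of 162 CPM per kb ± 26.1 (SD, n = 28 libraries), above every other member in all 28 libraries. Casp8 came next at 17.3 ± 3.64 CPM per kb, followed by Xiap at 11.1 ± 4.19, and Casp8 exceeded Xiap in 25 of 28 libraries. Apaf1 (5.33 ± 1.57 CPM per kb), Casp6 (4.86 ± 2.09) and Birc2 (4.07 ± 0.755) lay close together. Apaf1 exceeded Casp6 in 18 of 28 libraries and Casp6 exceeded Birc2 in 18, so these neighbours changed places between libraries. Casp9, at 3.01 ± 0.57 CPM per kb, exceeded Birc3, the lowest at 0.861 ± 0.263, in all 28. Birc3 had 80 to 330 reads per library, and its values carry the most counting error.

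The genes that varied most between libraries were Xiap and Casp6. The highest library exceeded the lowest 7.68-fold for Xiap, 4.74-fold for Casp6, 3.34-fold for Birc3 and 2.81-fold for Apaf1. The same ratio was 2.61 for Casp9, 2.26 for Casp8, 1.99 for Birc2 and 1.98 for Cycs. Casp6 in clone 12, at 29.9 to 57.9 CPM, did not overlap with the untagged lines, whose highest library had 23.9 CPM. In the other tagged clone, 14, it ran from 20.2 to 37.9 CPM and did overlap with them. How many other genes separate clone 12 in this way was not counted. Xiap had 1 library far below the rest in clone 12 and in clone 14, each with Nature siRNA.

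**Figure D1:**
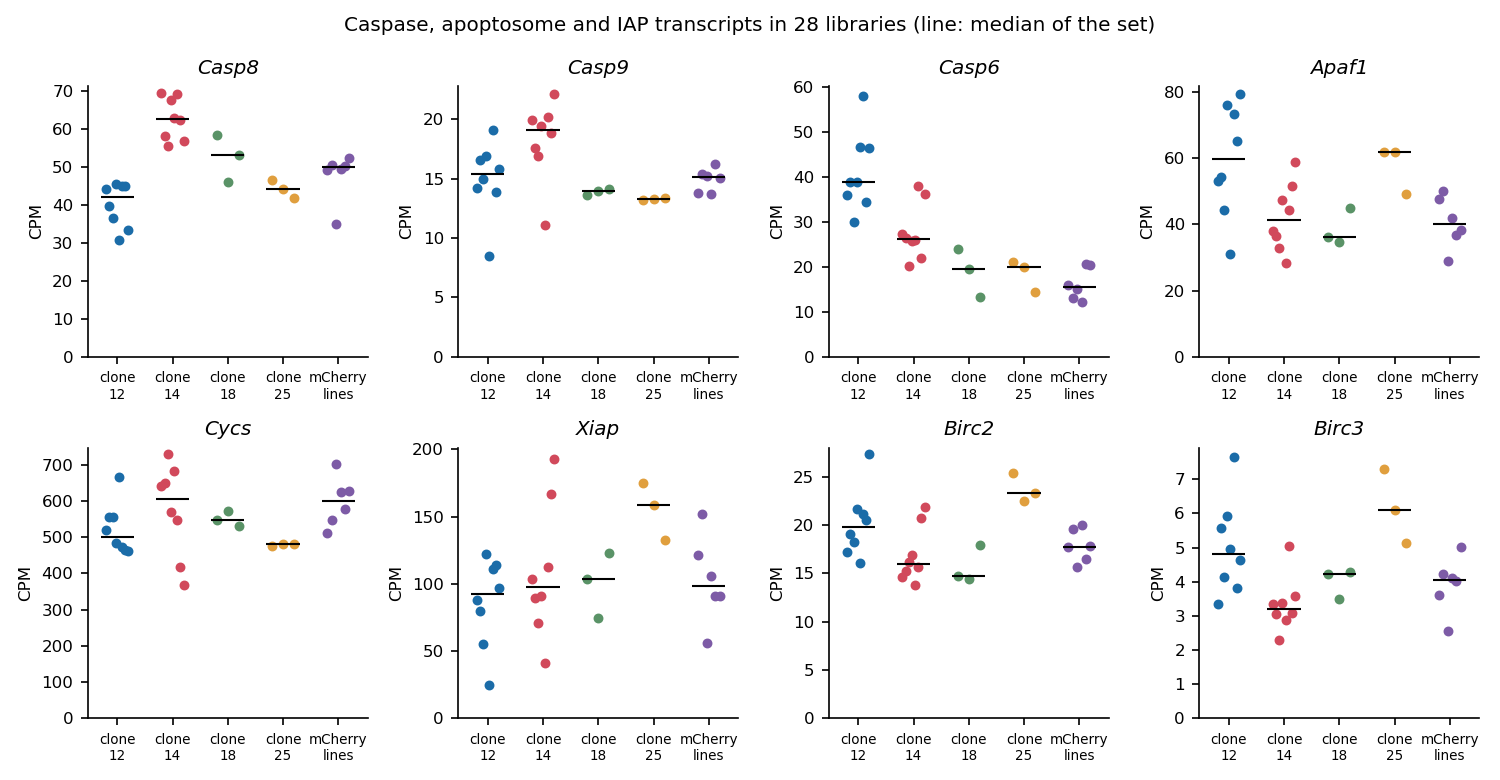
Levels of the 8 genes in CPM (counts scaled to a common library total) for all 28 libraries, 1 panel per gene, with libraries grouped on the horizontal axis by clone or line and a line at each median. Xiap ran from 25.1 to 193 CPM, and Cycs from 368 to 729 CPM.

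Differences below are log2 fold changes from edgeR's quasi-likelihood test over all 15099 genes with the clone as a block, called at a Benjamini-Hochberg adjusted p under 0.05. Pooled over siRNAs, few members were called. Tag siRNA against SCR in tagged clones called 0 of 8 members (0 at an unadjusted p under 0.05, 0 with DESeq2), where 3.86% of all genes were called. Cyclin D1 siRNA against SCR also called 0 of 8 (2 at an unadjusted p under 0.05, 0 with DESeq2), against 5.4% of all genes. The median log2 fold change of the 8 was -0.08 with tag siRNA and 0.01 with cyclin D1 siRNA, beside 0.03 and 0.02 over all genes. Their 95% intervals under tag siRNA reached no further than -0.87 (Xiap) and 0.53 (Birc3).

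Single siRNAs gave the calls. Nature siRNA lowered 3 of 8 members, where 8.56% of all genes were called (4.8% lower), and Life siRNA raised 2, where 8.29% were called (3.97% higher). FLAG siRNA called 0 of 8 in tagged clones (0 at an unadjusted p under 0.05, 0 with DESeq2), against 2.17% of all genes. HA siRNA called 0 with edgeR (3 at an unadjusted p under 0.05) and 1, Casp6, with DESeq2, against 4.11%. Qiagen siRNA called 0 (1 at an unadjusted p under 0.05, 0 with DESeq2), against 5.33%. All these comparisons share the same 2 SCR libraries, so each siRNA was also set against the mean of the other 4 targeting siRNAs, without SCR. There Nature lowered 3 members (9.93% of all genes called, 5.5% lower), Life raised 5 (14.2% called, 7.58% higher) and Qiagen raised 2 (13.7% called, 8% higher). These comparisons among siRNAs share libraries with one another as well.

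**Figure D2:**
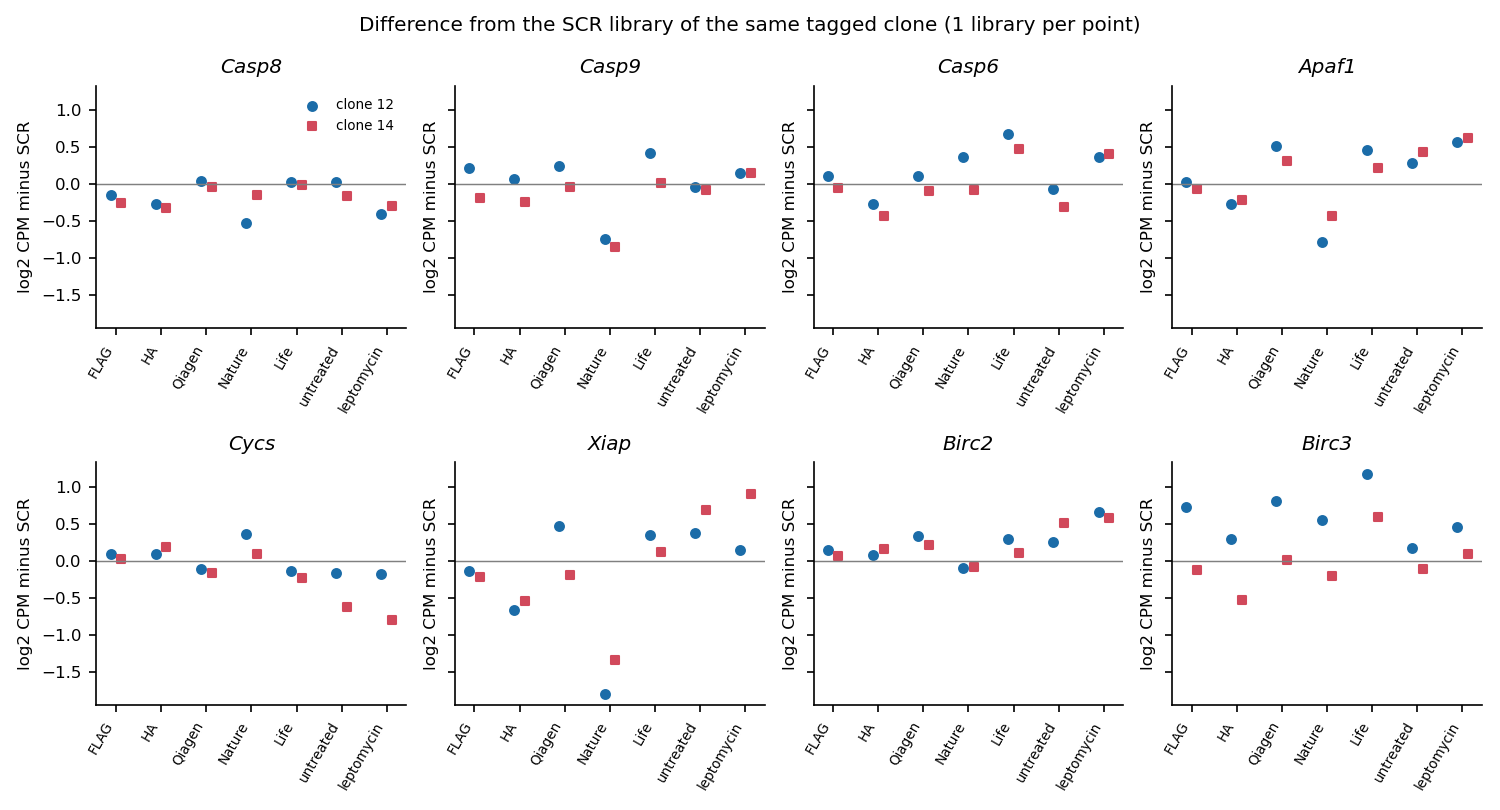
Log2 CPM of each member minus the SCR library of the same tagged clone (vertical axis), for each treatment on the horizontal axis, with clones 12 and 14 as separate points. Xiap under Nature siRNA lies lowest, at -1.80 in clone 12 and -1.34 in clone 14, and Birc3 under Life siRNA in clone 12 highest.

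Casp9, the initiator caspase of the apoptosome, fell with Nature siRNA. It stood at 14.2 CPM in clone 12 and 20 in clone 14 with SCR, and at 8.5 and 11.1 with Nature siRNA. Its other tagged libraries ran from 13.9 to 22.1 CPM, so the Nature libraries were the lowest of all 16. The level was 1.74-fold lower by edgeR (adjusted p = 0.00193), a log2 fold change of -0.80 with an SE of 0.145, at -0.74 in clone 12 and -0.84 in clone 14. Against the other 4 targeting siRNAs it was -0.86 (SE 0.122, edgeR adjusted p = 0.000128). Both calls held whichever single library was left out, with adjusted p up to 0.0423 and 0.0126. The call against SCR was lost when only the libraries compared were fitted (adjusted p = 0.17). Under FLAG siRNA Casp9 stood at 16.6 and 17.6 CPM, under HA at 15 and 17, and under Qiagen at 16.9 and 19.4.

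Casp8, the initiator caspase of death receptors, was not called with any siRNA against SCR. With SCR it stood at 44.2 CPM in clone 12 and 69.4 in clone 14. Of the 10 targeting siRNA libraries of tagged clones, 8 lay below their clone's SCR library, down to 30.7 CPM with Nature siRNA in clone 12. In clone 14 the Nature library stood at 63 CPM, close to SCR. The Nature estimate was -0.32 (edgeR adjusted p = 0.159). It was -0.57 and called without Nature clone 14 (adjusted p = 0.0282) or without all libraries with over 2% Rn45s (0.0301). Against SCR, the HA estimate -0.30 (adjusted p = 0.218) and the Qiagen estimate 0.00 (interval -0.29 to 0.30). In untagged clones, SCR gave 58.5 and 46.5 CPM in clones 18 and 25, FLAG siRNA 46 and 44.2, and HA siRNA 53.1 and 41.7. Tag siRNA there left Casp8 at -0.18 (adjusted p = 0.657).

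Casp6, an executioner caspase, was the member called in most siRNA comparisons. Life siRNA raised it: from 36 to 57.9 CPM in clone 12 and from 27.3 to 37.9 in clone 14, each the highest library of its clone. The rise was 1.49-fold, or 0.58 on the log2 scale with an SE of 0.132 (edgeR adjusted p = 0.0107). The call was lost without SCR clone 12 (0.48, adjusted p = 0.174), Life clone 12 (0.56, 0.0783) or Life clone 14 (0.60, 0.0609). Against the other 4 targeting siRNAs the rise was 0.62 (SE 0.1, adjusted p = 0.000536), called whichever single library was left out. Qiagen siRNA gave 0.01 (interval -0.27 to 0.29) and Nature siRNA 0.16 (interval -0.12 to 0.43). Nature went apart by clone, with 46.6 CPM in clone 12 and 25.8 in clone 14.

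HA siRNA lowered Casp6 relative to FLAG siRNA in each of the 4 clones, and 3.33% of all genes were called in that comparison (1.54% lower), with Casp6 the 1 member. In clone 12 it stood at 38.7 CPM with FLAG siRNA and 29.9 with HA. In clone 14 the values were 26.3 and 20.2 CPM. In untagged clone 18 they were 19.6 and 13.4 CPM, and in clone 25 they were 20 and 14.4. By edgeR it was 1.36-fold lower with HA (adjusted p = 0.0112), a log2 fold change of -0.44 with an SE of 0.0946. The difference was -0.37, -0.38, -0.55 and -0.47 in clones 12, 14, 18 and 25. The call was lost without FLAG clone 12 (-0.45, adjusted p = 0.052), HA clone 14 (-0.46, 0.0537), FLAG clone 25 (-0.43, 0.0614), FLAG clone 18 (-0.46, 0.0546) or HA clone 18 (-0.40, 0.0903). The mCherry lines of clone 18 were not part of that test. There the replicate 2 pairs gave 20.6 CPM with FLAG and 15.1 with HA siRNA in the mCherry line, and 20.5 and 12.2 in the FLAG-mCherry-HA line. HA was thus the lower of the pair in all 6 pairs. Both mCherry pairs derive from clone 18, so the 6 pairs stand for 4 clones.

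The lower Casp6 with HA siRNA was also seen where cyclin D1 has no tag and Ccnd1 showed no call. With SCR, Casp6 stood at 23.9 CPM in clone 18 and 21.1 in clone 25. HA siRNA against SCR in untagged clones gave -0.69 (SE 0.135, edgeR adjusted p = 0.00651), 1.62-fold lower and the 1 member called among 2.16% of all genes (1.22% lower). That call was lost without SCR clone 18 (-0.57, adjusted p = 0.369) or HA clone 18 (-0.60, adjusted p = 0.171). FLAG siRNA in untagged clones called 0 of 8 members (0 at an unadjusted p under 0.05, 0 with DESeq2) beside 2.02% of all genes, with Casp6 at -0.19. Pooled tag siRNA in untagged clones called Casp6 as well (-0.44, SE 0.114, adjusted p = 0.0461; 2.68% of all genes called, 1.47% lower). Leaving out any of its 6 libraries ended that call, with adjusted p from 0.0659 to 1. In tagged clones HA siRNA gave -0.35 (adjusted p = 0.137 with edgeR, called with DESeq2).

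The response to tag siRNA in tagged clones minus that in untagged clones called 0 of 8 members (0 at an unadjusted p under 0.05, 0 with DESeq2), and 0.00662% of all genes. For Casp6 this difference was 0.28 (SE 0.163, interval -0.06 to 0.62). Tag against cyclin D1 siRNA in tagged clones called 1 of 8, Casp6, at -0.41 (SE 0.0864, edgeR adjusted p = 0.0062), beside 6.99% of all genes (3.09% lower). It was called whichever single library was left out, with adjusted p up to 0.0415. Without the libraries with over 2% Rn45s, among them Life clone 14, it was -0.49 with an adjusted p of 0.0532. Birc3 gave -0.40 in the same comparison (adjusted p = 0.145).

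**Figure D3:**
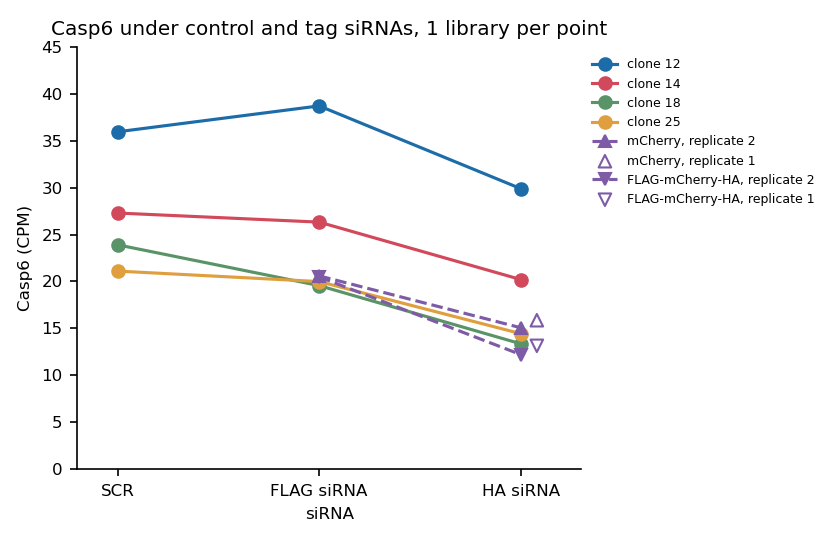
Casp6 in CPM (vertical axis) under SCR, FLAG and HA siRNA in clones 12, 14, 18 and 25 and in the mCherry lines, with points of 1 line joined. In each pair the HA library lies below the FLAG library, from 38.7 against 29.9 CPM in clone 12 to 20.5 against 12.2 CPM in the FLAG-mCherry-HA line.

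Apaf1, the scaffold of the apoptosome, fell with Nature siRNA. With SCR it stood at 53.1 CPM in clone 12 and 38 in clone 14, and with Nature siRNA at 30.9 and 28.2. These were the lowest library of each clone. The log2 fold change was -0.60 (SE 0.17, edgeR adjusted p = 0.0352), 1.52-fold lower. The call was lost without SCR clone 12 (-0.60, adjusted p = 0.202), Nature clone 12 (-0.41, 0.448) or SCR clone 14 (-0.60, 0.0825). Against the other 4 targeting siRNAs it was -0.73 (SE 0.141, adjusted p = 0.00233), and -0.53 (adjusted p = 0.18) without Nature clone 12. Qiagen siRNA left Apaf1 at 76.2 and 47.3 CPM, and Life siRNA at 73.4 and 44.5, all above SCR. Against the other 4 targeting siRNAs Qiagen gave 0.55 (SE 0.129, adjusted p = 0.00953) and Life 0.46 (adjusted p = 0.0251). Both comparisons hold the low Nature libraries in their mean. With Nature taken out of that mean, Qiagen gave 0.39 (adjusted p = 0.0736) and Life 0.29 (adjusted p = 0.192). The Qiagen call was also lost without Qiagen clone 12 (0.42, adjusted p = 0.273), and the Life call without Life clone 12 (0.31, 0.417) or Life clone 14 (0.60, 0.0663).

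Cycs, which encodes the cytochrome c that nucleates the apoptosome, was not called with any siRNA against SCR. With SCR it stood at 520 CPM in clone 12 and 640 in clone 14. The Nature libraries had 666 and 682 CPM and the Life libraries 472 and 547, so Cycs was high where Apaf1 was low. The Nature estimate was 0.22 (edgeR adjusted p = 0.333). Over the 10 targeting siRNA libraries, 6 lay above SCR and 4 below, between -0.23 and 0.36. Against untreated cells, where Cycs was lower, edgeR called it higher with FLAG (0.45, adjusted p = 0.0467), HA (0.54, 0.0103) and Nature siRNA (0.61, 0.00481).

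Xiap, the direct caspase inhibitor, had the largest siRNA change among the members. With SCR it stood at 87.7 CPM in clone 12 and 104 in clone 14, and with Nature siRNA at 25.1 and 40.9. The next lowest of the 28 libraries had 55.5 CPM. By edgeR this was 2.95-fold lower (adjusted p = 0.00141), a log2 fold change of -1.56 with an SE of 0.275, at -1.80 in clone 12 and -1.34 in clone 14. Without Nature clone 12 the value was -1.35 with an adjusted p of 0.051, and the call held without each of the other 3 libraries. Against the other 4 targeting siRNAs Nature gave -1.48 (SE 0.237, adjusted p = 0.000451), called whichever single library was left out. HA siRNA left Xiap at 55.5 and 71.2 CPM, both below SCR, with an estimate of -0.60 (adjusted p = 0.194). FLAG siRNA gave 79.5 and 89.1 CPM, Qiagen 122 and 91, and Life 111 and 113.

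Set against the other 4 targeting siRNAs, Xiap was higher with Life (0.78, edgeR adjusted p = 0.016) and Qiagen (0.72, SE 0.203, adjusted p = 0.025). With Nature taken out of the mean these were 0.44 (adjusted p = 0.221) and 0.37 (adjusted p = 0.283). The Life call was lost without Life clone 12 (0.59, 0.295) or Life clone 14 (0.95, 0.0628). The Qiagen call was lost without Qiagen clone 12 (0.24, adjusted p = 0.756), HA clone 12 (0.70, 0.0501), Nature clone 12 (0.65, 0.0539), FLAG clone 14 (0.69, 0.0505) or Life clone 14 (0.67, 0.0538). Casp9 under Life siRNA behaved the same way. It was 0.41 against the other 4 (adjusted p = 0.0201), 0.21 (adjusted p = 0.289) with Nature out of the mean, 0.29 (0.368) without Life clone 12 and 0.54 (0.0517) without Life clone 14.

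Birc2, encoding cIAP1, was not called with any siRNA against SCR. It stood at 17.2 and 14.6 CPM with SCR and lay higher than SCR in 8 of 10 targeting siRNA libraries, by at most 0.33 on the log2 scale. Against untreated cells the direction turned, at -0.28 with tag and -0.26 with cyclin D1 siRNA, and edgeR called Nature siRNA lower (-0.48, adjusted p = 0.0135). Birc3, encoding cIAP2, rose with Life siRNA, from 3.36 to 7.66 CPM in clone 12 and from 3.34 to 5.04 in clone 14. Both Life libraries were the highest of their clone. The rise was 1.85-fold, or 0.89 on the log2 scale with an SE of 0.241 (edgeR adjusted p = 0.0299). The call was lost without SCR clone 12 (0.57, adjusted p = 0.381), Life clone 12 (0.87, 0.139) or Life clone 14 (0.91, 0.116). Against the other 4 targeting siRNAs it was 0.69 (SE 0.183, adjusted p = 0.0181), and it was lost without Life clone 12 (0.67, 0.186) or Life clone 14 (0.72, 0.115).

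**Figure D4:**
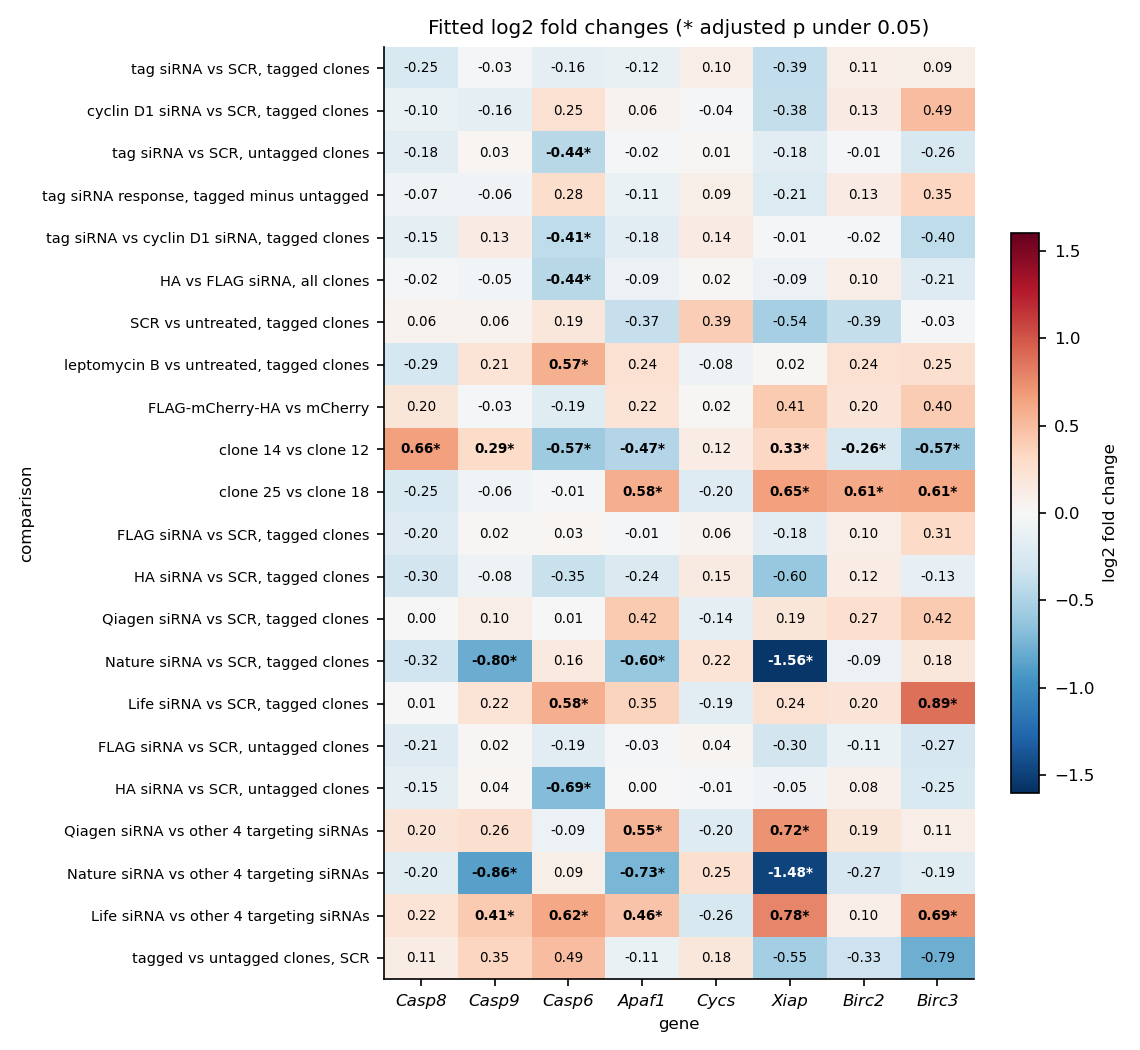
Log2 fold change of each member (columns) in each of the 22 comparisons (rows), on a colour scale, with a star where the edgeR adjusted p was under 0.05. The strongest siRNA value is Xiap under Nature siRNA at -1.56, and stars are densest in clone 14 against clone 12.

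The comparison of SCR with untreated cells of clones 12 and 14 takes in both transfection and the SCR sequence, which cannot be told apart. It called 0 of 8 members (3 at an unadjusted p under 0.05, 0 with DESeq2), beside 5.29% of all genes. Cycs stood at 464 and 417 CPM in untreated cells and at 520 and 640 with SCR, an estimate of 0.39 (edgeR adjusted p = 0.114). Xiap went from 114 and 167 CPM untreated to 87.7 and 104 with SCR (-0.54, adjusted p = 0.224). Birc2 (-0.39, adjusted p = 0.102) and Apaf1 (-0.37, adjusted p = 0.189) also had negative estimates. Against untreated cells in place of SCR, Nature siRNA called 5 members rather than 3, and tag and cyclin D1 siRNA called 3 each rather than 0. Calls over all genes also rose severalfold there for each of these siRNA groups, as the closing counts show. Whether the rise in members called differs from that over all genes was not tested.

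Leptomycin B raised Casp6 among the members, beside 9.99% of all genes called (4.29% higher). Casp6 went from 34.4 to 46.4 CPM in clone 12 and from 22.1 to 36.1 in clone 14. The rise was 1.49-fold, or 0.57 on the log2 scale with an SE of 0.132 (edgeR adjusted p = 0.00992). The call was lost without untreated clone 12 (0.61, adjusted p = 0.0605), untreated clone 14 (0.53, 0.101) or leptomycin B clone 14 (0.45, 0.0941). Casp8 did not pass the test at -0.29 (adjusted p = 0.219), from 45.1 to 33.4 CPM in clone 12 and from 62.4 to 56.8 in clone 14. Xiap showed no common direction, with 114 and 96.8 CPM in clone 12 and 167 and 193 in clone 14 (0.02, interval -0.54 to 0.58). The median of the 8 members was 0.23 beside 0.03 over all genes.

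The FLAG-mCherry-HA construct names both tags in its label. Against mCherry alone it called 0 of 8 members (0 at an unadjusted p under 0.05, 0 with DESeq2), and 0% of all genes. Xiap ran at 121, 56 and 90.9 CPM in the mCherry libraries (HA replicate 1, HA replicate 2, FLAG replicate 2) and at 152, 106 and 90.7 in the FLAG-mCherry-HA libraries. The estimate of 0.41 had an interval from -0.05 to 0.88. The low mCherry HA replicate 2 library also had the least Casp8 of its line, 35 CPM, the least Apaf1, 28.9, and the most Cycs, 701, and it is 1 of the 4 libraries rich in Rn45s. Without those libraries the Xiap estimate was 0.14.

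The comparison of clones 14 and 12 called more members than any treatment did. Clone 14 against clone 12, over 8 matched treatments, called 7 of 8 members, where 62.6% of all genes were called, so a call here is close to the norm. Casp8 was higher in clone 14 in 8 of 8 pairs (edgeR adjusted p = 2.02e-07), by 0.66 on the log2 scale with an SE of 0.0708. The same held for Casp9 (0.29, SE 0.0721, adjusted p = 0.00169). Casp6 was lower in 8 of 8 pairs (-0.57, SE 0.0663, adjusted p = 5.2e-07). Apaf1 (-0.47, adjusted p = 8.93e-05) and Birc3 (-0.57, adjusted p = 0.000497) were lower in 8 of 8 as well, and Birc2 (-0.26, adjusted p = 0.00368) in 7 of 8. Xiap was higher in 7 of 8 (0.33, adjusted p = 0.0435). That call held only without FLAG, Qiagen or Life clone 14 or without Qiagen or Life clone 12, and it was lost without each of the other 11 libraries (0.23 to 0.35, adjusted p 0.0524 to 0.142). Cycs was at 0.12 (adjusted p = 0.172), and was called without leptomycin B clone 12 (0.20, adjusted p = 0.0113) or leptomycin B clone 14 (0.18, 0.0262). Clone 14 is also the clone with Col1a1 below 1 CPM and the highest Krt19, though clone 18 had much Krt19 as well (776 to 906 CPM). The part of that difference in these results was not tested.

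Clone 25 against untagged clone 18, over SCR, FLAG and HA siRNA, raised 4 of 8 members, beside 47.6% of all genes called (22.9% higher). They were Birc2 (log2 fold change 0.61, SE 0.113, edgeR adjusted p = 0.000277), Apaf1 (0.58, SE 0.139, adjusted p = 0.00233), Xiap (0.65, SE 0.22, adjusted p = 0.0215) and Birc3 (0.61, SE 0.195, adjusted p = 0.0151). All 4 were higher in clone 25 in 3 of 3 pairs. The share of members called is close to that of all genes. Birc2 stood at 14.7, 14.4 and 17.9 CPM in clone 18 and 25.4, 22.5 and 23.3 in clone 25, with no overlap. Neither the Xiap nor the Birc3 call survived leaving out SCR clone 25 (0.60, adjusted p = 0.111; 0.53, 0.111), FLAG clone 25 (0.43, 0.219; 0.52, 0.114), SCR clone 18 (0.60, 0.111; 0.53, 0.111) or FLAG clone 18 (0.43, 0.218; 0.52, 0.113). The 3 caspases and Cycs were not called. Tagged against untagged clones, with SCR in 2 clones each, called 0 of 8 (0 at an unadjusted p under 0.05, 0 with DESeq2) and 0% of all genes, with Birc3 at -0.79 (SE 0.623). In bulk RNA, fewer cells of a kind and less RNA per cell cannot be told apart.

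Other genes of the pathway were taken as 6 lists with 71 tested genes: other caspases, other IAP genes and their antagonists, apoptosome regulators, death receptors and adaptors, BIRC2 and BIRC3 signalling partners, and caspase substrates. Tag siRNA in tagged clones called 2 higher and 2 lower (5.63% of the 71, beside 3.86% of all genes), with a median log2 fold change of 0.03. Dffa, the inhibitor of the caspase-activated DNase, rose (1.14, SE 0.161, edgeR adjusted p = 0.000414), and Tnfrsf10b, a TRAIL receptor, rose (0.38, SE 0.101, adjusted p = 0.0423). Ikbkb, an IkB kinase (-0.47, adjusted p = 0.0119), and Tnfaip3, the NF-kB feedback inhibitor A20 (-0.54, adjusted p = 0.0278), fell. Tnfaip3 stood at 7.68 and 12.5 CPM with FLAG siRNA and 7.70 and 11.4 with HA, near the untreated 6.71 and 12, while SCR, at 11.8 and 16.4, was above untreated (0.63, adjusted p = 0.027). Cyclin D1 siRNA called 1 higher, Dffa (0.98), and 1 lower, Ikbkb (-0.34, adjusted p = 0.0427), or 2.82% beside 5.4%.

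In tagged clones every one of the 5 targeting siRNAs raised Dffa, between 0.86 with Life and 1.22 with HA, and with tag siRNA in untagged clones (1.18, SE 0.165, edgeR adjusted p = 0.000373). Its level was 5.67 and 5.98 CPM with SCR and 9.86 and 10.7 in untreated cells, so SCR was also below untreated (-0.81, SE 0.177, adjusted p = 0.014). The siRNA comparisons of tagged clones share those SCR libraries. The untagged comparison has SCR libraries of its own, but with the same control siRNA and without untreated cells. A rise with targeting siRNA and a fall with SCR siRNA cannot be told apart there.

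Nature siRNA called 2 of the 71 higher and 2 lower (5.63%, beside 8.56% of all genes). Panx1, a channel opened by caspase cleavage, rose (1.07, edgeR adjusted p = 0.00876) beside Dffa (0.93), and Ikbkb (-0.69, adjusted p = 0.00107) and Casp2 (-0.57, adjusted p = 0.0215) fell. Life siRNA called 3 higher and 2 lower (7.04%, beside 8.29%). Traf1, a cIAP-binding adaptor, was at 1.18 (edgeR adjusted p = 0.0425), Nfkb1 at -0.57 (adjusted p = 0.00817) and Tnfaip3 at -0.63 (adjusted p = 0.0202). Beside Casp6, HA against FLAG siRNA called 3 of the 71 (4.23%, beside 3.33% of all genes), all higher: Aven, an APAF1-binding inhibitor (0.61, adjusted p = 0.0128), Birc5, the IAP survivin (0.57, adjusted p = 0.0243), and Anp32a, an apoptosome regulator (0.30, adjusted p = 0.0221).

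Leptomycin B called 2 of the 71 higher and 5 lower (9.86%, beside 9.99% of all genes). Tnfaip3 fell furthest (-1.84, SE 0.169, edgeR adjusted p = 4.98e-06), from 6.71 and 12 CPM to 2.21 and 2.89. Xaf1, an XIAP-binding protein (0.98, adjusted p = 0.0208), and Ripk3, the necroptosis kinase (0.69, adjusted p = 0.00862), rose. The receptor Tnfrsf21 fell (-1.12, adjusted p = 8.31e-05), as did Traf1 (-1.61, adjusted p = 0.0255). Between clones 14 and 12, 74.6% of the 71 were called, beside 62.6% of all genes, 34 higher and 19 lower. Casp12 was lower in clone 14 (-4.07, SE 0.176). Hccs, which attaches haem to cytochrome c, was higher (1.22, adjusted p = 7.64e-11). Clone 25 against clone 18 called 56.3% of the 71, beside 47.6% of all genes.

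Within lines, several members varied together over the 28 libraries. After the mean of each of 5 sets (4 clones and the mCherry lines) was removed from log2 CPM, Pearson's r was 0.94 between Apaf1 and Xiap, 0.83 between Apaf1 and Birc2, and 0.76 between Casp9 and Xiap. Cycs ran opposite, at -0.83 with both Apaf1 and Xiap. Casp6 stood outside this pattern, at 0.07 with Xiap and 0.60 with Birc3. These libraries share depth, RNA and library preparation, and the values are descriptions.

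A measure of transcript length ran along the same axis. For each library it was the median log2 CPM deviation of the longest 20% of tested genes minus that of the shortest 20%. It correlated over the 28 libraries at 0.87 with Xiap, 0.84 with Apaf1, 0.68 with Casp8 and 0.62 with Birc2, at -0.77 with Cycs, and at 0.00 with Casp6. Casp9 was at 0.41 and Birc3 at 0.34. Xiap and Apaf1 have the longest exon totals of the 8 (9469 and 9028 bases), and Cycs has 3404. Exon length did not order the members throughout. Casp8, with a positive correlation, has the shortest total (2893 bases), and Casp6, with none, has 5584. The measure was -0.64 in Nature clone 12 and -0.14 in Nature clone 14, against 0.15 and -0.04 in their SCR libraries. It was -0.36 and -0.45 in HA clones 12 and 14, and 0.41 and 0.56 in untreated clones 12 and 14. With an offset that takes out the trend with length in each library, an alternative chosen after seeing the data, the Nature calls were kept: Xiap at -1.38 (edgeR adjusted p = 9.88e-05), Casp9 at -0.76 (0.00101) and Apaf1 at -0.42 (0.0268). Casp6 with HA against FLAG siRNA was -0.43 there (adjusted p = 0.00971). Leptomycin B then raised Apaf1 as well (0.38, adjusted p = 0.0353).

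**Figure D5:**
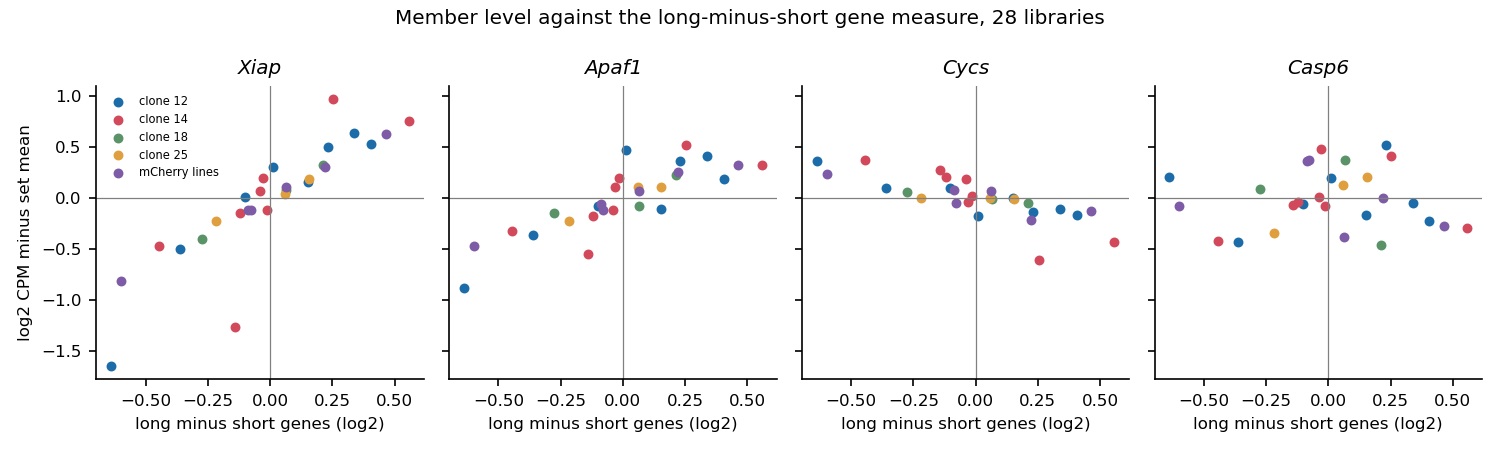
Within-line log2 CPM deviation of Xiap, Apaf1, Cycs and Casp6 (vertical axis) against the long-minus-short length measure of each of the 28 libraries (horizontal axis, log2). Xiap and Apaf1 slope upward (r = 0.87 and 0.84), Cycs downward (r = -0.77) and Casp6 shows no slope (r = 0.00).

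The genes nearest in pattern to each member were sought among 8828 genes averaging 10 CPM or more (8829 for Birc3), by the same within-line correlation over 28 libraries. Xiap lay nearest to Nedd4, a ubiquitin ligase (r = 0.98), Rps6ka3, a kinase of the RSK family (0.97), and Frs2 (0.97). Frs2, an adaptor of fibroblast growth factor receptors, was also near Apaf1 (0.95), with Dync1li2 (0.96). Cycs was nearest to Bud31, a splicing factor (0.95), Higd1a, a mitochondrial protein (0.95), and Hnrnpab (0.93). Casp9 was nearest to Nipsnap3b (0.92), Rab8b (0.92) and Tmem135 (0.91). The likeness was weaker for Birc2, with Tmx3 (0.89), Uevld (0.89) and Hltf (0.89), for Casp8, with Fmnl2 (0.88), Lamc1 (0.88) and Zdhhc5 (0.85), and for Casp6, with Csnk1d (0.87), Ube2l6 (0.87) and Pfkm (0.84). Birc3, the member with the fewest reads, reached 0.79 with Dennd2c, 0.78 with Cav2 and 0.75 with Col11a1.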

How the data were processed

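Polyadenylated RNA was sequenced in 28 libraries as single reads of 100 bp from a stranded library, per the labels' protocols. The authors deposited raw counts per gene, not normalized, in 1 table. The submitters' processing notes name CASAVA 1.8.2, FastQC, TopHat2 2.0.13, Bowtie2 2.2.3, HTSeq 0.6.1p1 and build mm10. The sources used here give neither the annotation nor the strand setting of the counting. The 22 rows without a gene identifier held at most 0.0137% of a library and were not removed before the filter on low counts.

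Counts were fitted in R 4.3.3 with edgeR 4.0.16 (robust quasi-likelihood test, TMM scaling, filterByExpr by group, 15 groups, 17 coefficients, 11 residual degrees of freedom, biological coefficient of variation 14.6%). The comparison of tagged and untagged clones under SCR used its 4 libraries alone, with 13233 genes. The clone, or the replicate label of the mCherry lines, was a block: same-numbered libraries come from the same clone, and their deviations from group means correlated at 0.834 or more over 28 pairs of tagged groups, 0.862 or more in untagged clones and 0.384 between the mCherry lines. P-values were Benjamini-Hochberg adjusted over all genes tested. CPM was computed from the counts with TMM-scaled library sizes, and log2 CPM with a prior count of 2. SE is the log2 fold change divided by the root of F. No 2 libraries agreed within sampling noise (chi-square per degree of freedom at least 13.8 over 378 pairs). DESeq2 1.42.0 served as an alternative, with other filters and scalings, fits without the block and fits with each library left out. The test was checked on simulated counts.

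Positions and exon lengths came from the GRCm38.p6 annotation and sequences from RefSeq. Named genes are the 8 members and up to 3 called genes with the smallest p per list and comparison; the 3 nearest patterns rank by correlation. Some genes that this rule names are not reported here. Members and lists were chosen with earlier results of these data known.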

Additional observations from a re-analysis of the deposited data

How the results depend on the processing

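Of 176 member results (8 genes in 22 comparisons) 31 were called. Of these, 9 were called under every alternative run for them, among them 6 of the 7 in clone 14 against clone 12. Comparisons of 1 clone with another were not part of the fits without the clone as a block. Their calls therefore did not face the setting in which most siRNA calls were lost. The count of 9 cannot rank them beside the siRNA calls for that reason. Of 2632 alternative values for single members, 2502 kept their side of the threshold, with 158 sign changes among uncalled values. The cause of the other changes was not tested. The member counts below stand without the share of all genes called under each setting, and that share moved widely too. They therefore do not show how the members differ from other genes. Without the clone as a block, members called went to 0 for tag siRNA in untagged clones, tag against cyclin D1 siRNA, HA against FLAG siRNA, leptomycin B, Nature siRNA, Life siRNA, HA siRNA in untagged clones, and Qiagen and Life against the other siRNAs, and to 1 (Casp9) for Nature against the others. The paired libraries share a clone, and clones differ widely. Without a low-count filter, tag siRNA in untagged clones called 0 and Qiagen against the others 1. Without the libraries rich in Rn45s, tag siRNA in untagged clones called 0, tag against cyclin D1 siRNA 0, Life siRNA 0, Life against the others 1, clone 14 against clone 12 6 and Nature siRNA 4, with Casp8 gained. With only the compared libraries fitted, the counts were 2 for tag siRNA in tagged clones, 0 in untagged clones, 0 for HA against FLAG, 2 for leptomycin B, 3 for HA siRNA, 1 for Nature siRNA, 3 for Life siRNA and 1 for FLAG siRNA in untagged clones. Against untreated cells they were 3 for tag siRNA, 3 for cyclin D1 siRNA, 1 for FLAG, 3 for HA and 5 for Nature siRNA, and Cycs with cyclin D1 siRNA turned from -0.04 to 0.35 (edgeR adjusted p = 0.0405). DESeq2 called 1 member with HA siRNA. Length offsets, chosen after seeing the data, gave 0 for tag siRNA in untagged clones and 2 for leptomycin B. With Nature left out of the mean, also chosen after seeing the data, Qiagen called 0 and Life 2.

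Leaving out 1 library at a time, members called ran from 0 to 1 for HA siRNA in untagged clones, HA against FLAG siRNA and leptomycin B, from 0 to 2 for Life siRNA and for Qiagen against the others, from 1 to 5 for Life against the others, from 1 to 4 for Nature siRNA, from 2 to 4 for clone 25 against clone 18, and were 0 throughout for tag siRNA in untagged clones. Where 1 library then stood for a group, its spread was taken from the other groups.

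Counts of all genes moved widely between settings as well. For tag siRNA in tagged clones 583 genes were called, 982 with DESeq2, 32 without the block, 113 without SCR clone 12, 3283 with only the compared libraries and 4921 against untreated cells. For cyclin D1 siRNA they were 815, 1280, 40, 97, 65 and 3584, and for Nature siRNA 1293 against 116 without the block, 441 without SCR clone 12 and 5066 against untreated cells. Depth limits Birc3 most, at 80 to 330 reads per library; 95.3% of tested genes had a length for the length measure.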
